A study of Sus scrofa with 6 samples.

Results

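Respiratory complex I, the NADH dehydrogenase that opens the electron transport chain, was followed in immature pig Sertoli cells, the somatic cells that nurse germ cells in the testis. Its members were the rows of the deposited table whose Ensembl ID carried a symbol of the form NDUFA, NDUFB, NDUFC, NDUFS or NDUFV plus a number, with the mitochondrial genes ND1, ND2, ND3, ND4, ND4L, ND5 and ND6. They came to 35 of 20731 genes, 28 in the nucleus and 7 in the mitochondrial genome. The groups were 3 MT libraries, from cells given 10 nM of the pineal hormone melatonin over 36 h, and 3 Control libraries, for which no agent, solvent or time is given. The labels list the cells as a cell line and give no breed, age or passage. Nothing in the labels says whether the replicates were separate cultures or animals, so a p-value here weighs a difference against library-to-library spread that may be technical alone. Another 9 nuclear subunit symbols of the name tables (NDUFA1, NDUFA3, NDUFA12, NDUFA13, NDUFB3, NDUFB7, NDUFC1, NDUFS7 and NDUFV3) matched no row and are not analysed here.

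Complex I takes electrons from NADH through a flavin and a chain of iron-sulphur clusters to ubiquinone, and pumps protons across the inner mitochondrial membrane. Its matrix arm is built of nuclear-encoded subunits, and the core of its membrane arm of the ND proteins, so the complex needs products of both genomes. Mitochondrial mRNAs are cut from long transcripts of either strand of the circular genome, and nuclear subunits are transcribed singly and imported. Sertoli cells are known for making lactate by glycolysis for the germ cells while drawing on oxidation of fatty acids in their own mitochondria.

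The libraries held 20484755 to 21500665 reads in MT and 19579279 to 20961380 in Control, as recovered from the spacing of low FPKM values. Control 3 stood apart, with a correlation across tested genes of 0.938 and 0.939 with the other Control libraries against 0.952 to 0.975 with the MT libraries. It was the highest or lowest of the 6 libraries in 74.1% of the 10950 genes tested. Of 12 Sertoli markers 9 were in the table and 5 averaged at least 1 FPKM, among them WT1 (10 to 12.8 FPKM), AMH (11.3 to 15.6) and SOX9 (1.61 to 2.4), while INHA, KITLG and DHH stayed under 0.1 FPKM. The summed Sertoli level was 3323 to 3922 FPKM in MT and 2938 to 3454 in Control, nearly all of it CLU. Myoid markers summed to 162 to 194 FPKM in MT and 160 to 265 in Control, nearly all from TAGLN, with ACTA2 at most 0.208 and MYH11 at most 0.0406. Macrophage markers summed to 11.6 to 13.3 in MT and 9.38 to 12.2 in Control, mostly CD14 and CD68, while CSF1R stayed at or under 0.0522. Leydig markers summed to 3.74 to 4.87 and 3.85 to 4.35, germ cell markers to 1.28 to 1.53 and 0.782 to 1.39, and endothelial markers to 0.152 to 0.322 and 0.162 to 0.309, in MT and in Control in that order. The part of these cell types in the results was not tested.

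No complex I member passed the test between MT and Control. All values are FPKM, read numbers scaled by gene length and library size, and differences are of log2(FPKM + 1) by limma with Benjamini-Hochberg adjustment over all 10950 tested genes at a threshold of 0.05. Of the 34 members that averaged at least 1 FPKM, 0 passed, as did 0 of all tested genes (0%). At an unadjusted p under 0.05 there were 2 members, ND4L higher and NDUFC2 lower in MT, beside 517 of all tested genes (4.72%, with 2.33% higher and 2.39% lower). In limma voom on the recovered reads 0 members passed as well, and 3 had an unadjusted p under 0.05. The median log2 difference was 0.03 over the 27 tested nuclear members (range -0.34 to 0.15) and 0.09 over the 7 mitochondrial ones (-0.25 to 0.54), beside 0.02 over all tested genes. The standard error of a member had a median of 0.17 in the nuclear set and 0.22 in the mitochondrial set. Differences of that size could not be told from the spread. Larger differences did not pass either, up to 0.54 for ND4L (SE 0.22). In bulk RNA, fewer cells of a type and less RNA per cell cannot be told apart.

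The balance of the 2 genomes was read as the FPKM of the 7 mitochondrial subunits, summed, over that of the 28 nuclear subunits. It was 8.88, 11.2 and 8.4 in MT 1 to 3, and 12.2, 12.6 and 4.8 in Control 1 to 3. All 3 MT libraries thus lay below Control 1 and Control 2 and above Control 3. The mean was 9.5 ± 1.5 in MT and 9.87 ± 4.39 in Control (SD, n = 3 each). The mean log2 ratio, MT minus Control, was 0.06 with all libraries and -0.40 without Control 3. With all libraries the mean ratio was thus lower in MT and the mean log2 ratio higher. No test was made of this score, since its members were chosen together.

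**Figure D1:**
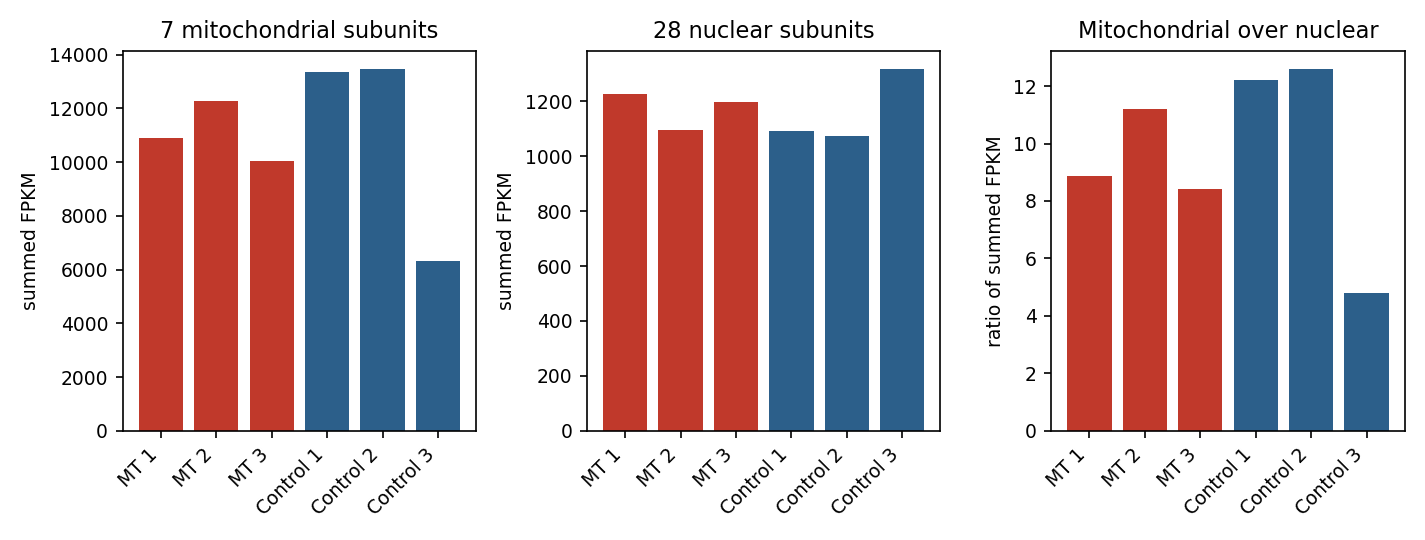
Summed FPKM of the 7 mitochondrial subunits, of the 28 nuclear subunits and their ratio, 1 bar per library, MT in red and Control in blue. The ratio is 8.4 to 11.2 in MT, and is 12.2 and 12.6 in Control 1 and 2 and 4.8 in Control 3.

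The mitochondrial side spread more than the nuclear side. The mitochondrial subunits summed to 10906, 12289 and 10051 FPKM in MT 1 to 3 and to 13350, 13474 and 6331 FPKM in Control 1 to 3. The nuclear subunits summed to 1227, 1097 and 1196 FPKM in MT and to 1090, 1072 and 1318 FPKM in Control. Control 3 therefore held both the lowest mitochondrial and the highest nuclear sum. By reads, the 7 mitochondrial subunits took 1.14%, 1.29% and 1.07% of MT libraries and 1.42%, 1.47% and 0.704% of Control libraries. The nuclear subunits took 0.154% to 0.168% in MT and 0.157% to 0.175% in Control. The summed FPKM of the 6 other mitochondrial mRNAs, of which COX1 is the largest, stood at 25, 31.3 and 23.6 times the nuclear complex I sum in MT and at 33.8, 31.9 and 13.3 times in Control. Of the summed FPKM of the 13 mitochondrial mRNAs, complex I subunits held 26.2% to 26.4% in MT and 26.5% to 28.2% in Control.

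The 7 mitochondrial members did not move together. The mRNAs of ND1, ND4 and ND4L were higher in every MT library than in every Control library, while ND2, ND5 and ND6 were lower in every MT library than in Control 1 and Control 2 but higher than in Control 3. Non-overlap in the higher direction, seen in 3 of the 7, was found in 6.24% of all tested genes. ND4 and ND4L are read from the same mRNA, so the 3 are not independent, and no test was made of this count. Their lengths worked out from the FPKM steps matched RefSeq for all 13 mitochondrial mRNAs, and each of the 7 rested on 3987 to 140368 reads per library, so counting error is small beside the spread between libraries. Positions are those of RefSeq on Sscrofa11.1.

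ND1 (MT chromosome, 3922 to 4876), the membrane subunit that lines the way of ubiquinone into the complex, stood at 1971, 2108 and 1805 FPKM in MT and at 1764, 1657 and 1362 FPKM in Control. The groups did not overlap, with Control 3 lowest. Its log2 difference was 0.30 (SE 0.13, adjusted p 1 in limma), and 0.20 (SE 0.09, adjusted p 0.15) without Control 3.

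ND4 (11359 to 12736) is a proton-pumping antiporter-like subunit, and ND4L (11069 to 11365) a small membrane subunit read from the same bicistronic mRNA, with 7 bases in common. ND4 stood at 1968, 2017 and 1840 FPKM in MT and at 1656, 1664 and 976 FPKM in Control. ND4L stood at 1500, 1436 and 1331 FPKM in MT and at 1160, 1165 and 690 FPKM in Control. In both, Control 1 and Control 2 lay within a few FPKM of each other and below all MT values. The log2 differences were 0.48 for ND4 (SE 0.22) and 0.54 for ND4L (SE 0.22), each with an adjusted p of 1 in limma. Without Control 3 they were 0.22 (SE 0.07, adjusted p 0.071) and 0.29 (SE 0.07, adjusted p 0.051), close to the threshold of 0.05 but not past it. The ratio of ND4L to ND4 stayed narrow, at 0.762, 0.712 and 0.723 in MT and 0.7, 0.7 and 0.707 in Control.

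ND5 (12935 to 14755), the antiporter-like subunit at the tip of the membrane arm, was the most abundant of the 7 per length in all 6 libraries. It stood at 2349, 2674 and 2243 FPKM in MT and at 3509, 3849 and 1740 FPKM in Control. Control 3 lay below all MT libraries and the other Control libraries above them. Over 6 libraries the log2 difference was -0.25 (SE 0.30, adjusted p 1 in limma), and without Control 3 -0.61 (SE 0.10, adjusted p 0.025).

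ND6 (14739 to 15266), a small membrane subunit and the only protein encoded on the light strand, varied most. It stood at 1180, 1743 and 1133 FPKM in MT and at 2707, 2834 and 434 FPKM in Control. The MT values again lay between Control 3 and the other Control libraries. Its log2 difference was -0.17 (SE 0.70, adjusted p 1 in limma), and ND6 fell by 1.06 (SE 0.18, adjusted p 0.028) without Control 3. ND6 shares 17 bases with ND5 on the opposite strand, and the strand setting of the counting is not given in the sources used here, so reads of ND6 and of antisense RNA over it cannot be told apart.

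ND2 (5087 to 6128), a further antiporter-like subunit, stood at 1169, 1560 and 1095 FPKM in MT and at 1766, 1634 and 578 FPKM in Control, a log2 difference of 0.09 (SE 0.42), and of -0.43 without Control 3 (SE 0.15, adjusted p 0.089 in limma). ND3 (10653 to 10998), a small subunit near the junction of the arms, stood at 769, 750 and 605 FPKM in MT and at 789, 671 and 550 FPKM in Control. Its groups overlapped, and its difference was 0.09 (SE 0.17) with all libraries and -0.05 (SE 0.12) without Control 3. Neither passed in limma. Control 3 was the lowest library for all 7 mitochondrial members, by a log2 of 0.33 (ND1) to 2.67 (ND6) below the mean of Control 1 and Control 2.

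**Figure D2:**
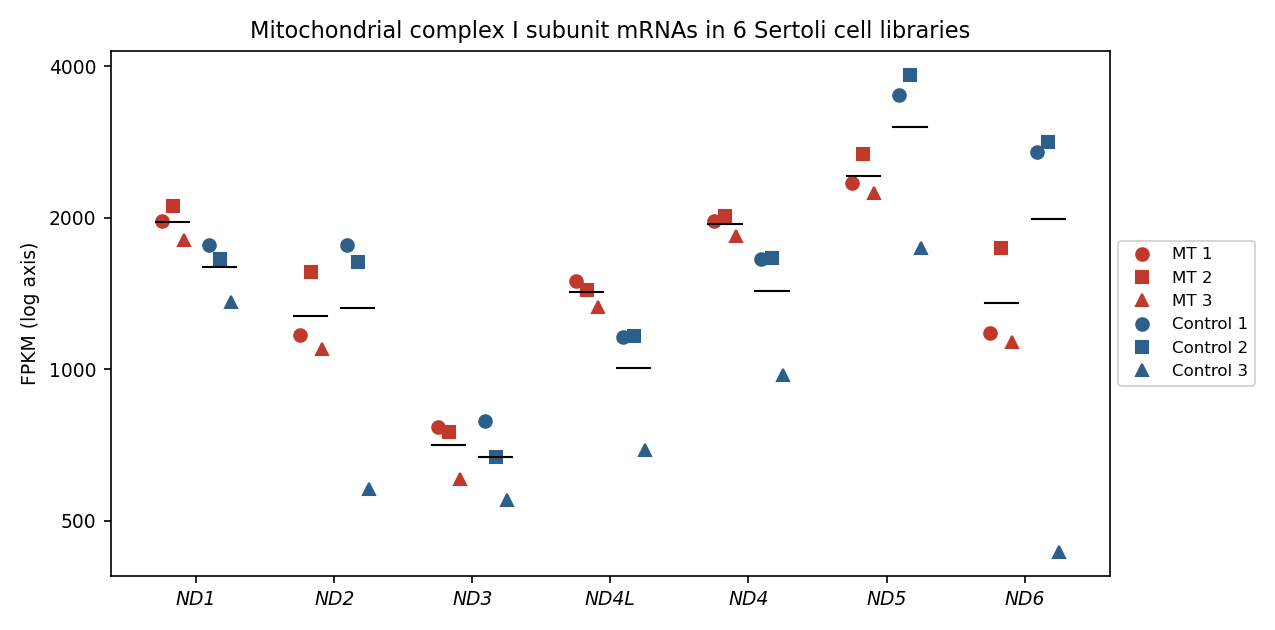
FPKM of the 7 mitochondrial complex I mRNAs on a log axis, 1 point per library, MT in red left of Control in blue, with a bar at each group mean. ND1, ND4L and ND4 do not overlap between the groups, and Control 3 is the lowest point of every gene, down to 434 FPKM for ND6.

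Ratios between mitochondrial members are free of the scaling of a library, and some separated the groups with Control 3 included. ND5 stood at 1.19, 1.33 and 1.22 times ND4 in MT and at 2.12, 2.31 and 1.78 times in Control. ND5 made up 21.5%, 21.8% and 22.3% of the summed FPKM of the 7 mRNAs in MT and 26.3%, 28.6% and 27.5% in Control. Control 3, low in level, thus sat with its own group in this share. ND4 held 16.4% to 18.3% in MT and 12.4% to 15.4% in Control, and ND4L 11.7% to 13.8% and 8.64% to 10.9%. ND6 held 10.8% to 14.2% in MT, against 20.3%, 21% and 6.85% in Control. Of the 21 ratios between members, 7 did not overlap between the groups (33.3%): ND1, ND4 and ND4L over ND5, ND1 over ND3, ND4 and ND4L over ND3, and ND4L over ND4. Among the 13 mitochondrial mRNAs it was 32 of 78 ratios (41%), and among the 27 tested nuclear members 27 of 351 (7.69%). Ratios that share a gene are not independent, these were looked at after the values were seen, and no test was made of them.

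**Figure D3:**
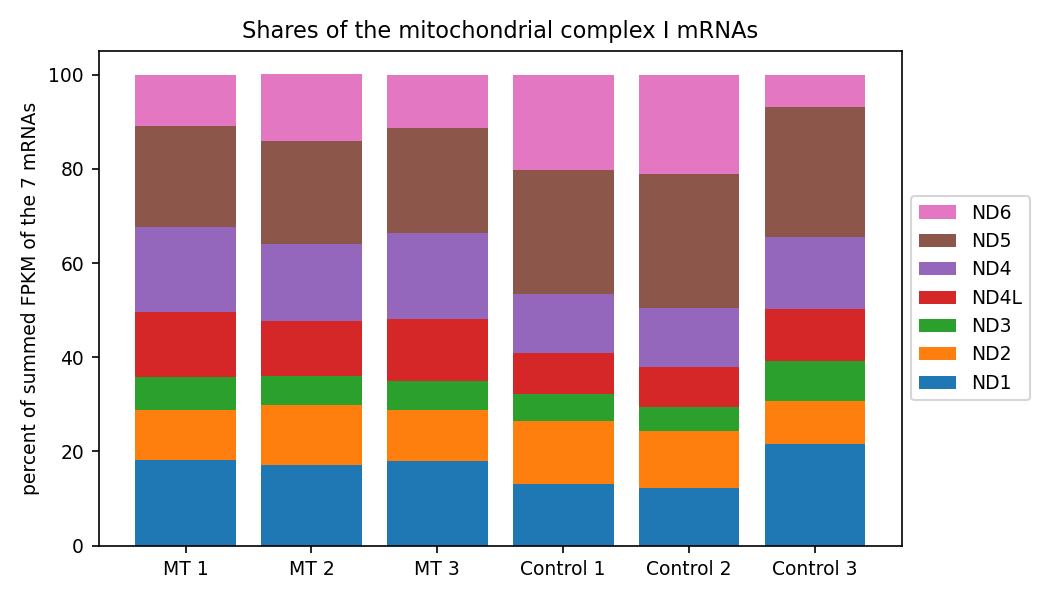
Percent of the summed FPKM of the 7 mitochondrial complex I mRNAs held by each, 1 stacked bar per library, MT left and Control right. The ND5 segment is 21.5% to 22.3% in MT and 26.3% to 28.6% in Control, while ND6 is 6.85% in Control 3 and at least 20.3% in Control 1 and 2.

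On the nuclear side, most core subunits of the matrix arm shown here were close to level between the groups. NDUFV1 (chromosome 2, 4958508 to 4964211), which binds NADH and the flavin, stood at 35.5, 33.4 and 35.9 FPKM in MT and at 32.1, 31.5 and 39.2 FPKM in Control. NDUFS1 (chromosome 15, 109413726 to 109451813), the large iron-sulphur subunit, stood at 29.6, 30.7 and 31.2 FPKM in MT and at 34.1, 33.6 and 25.8 FPKM in Control. For both, the MT values fell between Control 3 and the other Control libraries, in opposite order. NDUFS3 (chromosome 2, 15031147 to 15036880), of the ubiquinone module, stood at 64.5, 56.9 and 66.5 FPKM in MT and at 59.3, 59.3 and 72.3 FPKM in Control. The log2 differences of these 3 were -0.02 to 0.03, with standard errors of 0.12 to 0.13, and none passed in limma in either fit.

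NDUFV2 (chromosome 6, 98819156 to 98852561), the iron-sulphur partner of NDUFV1, was the core nuclear subunit that changed without Control 3. It stood at 28.6, 29.1 and 26.5 FPKM in MT and at 36.8, 34.9 and 19.8 FPKM in Control. Over 6 libraries its log2 difference was -0.07 (SE 0.23, adjusted p 1 in limma), and -0.34 without Control 3 (SE 0.07, adjusted p 0.038). NDUFV2 and NDUFV1 join in 1 module, yet their FPKM ratio was 0.806, 0.872 and 0.736 in MT and 1.15, 1.11 and 0.506 in Control. NDUFS8, an iron-sulphur subunit next to ubiquinone, averaged only 0.211 FPKM on 28 to 47 reads per library, under the filter of 1 FPKM, and was not tested. Its gene model in the table spans 9683 bases of transcript, longer than the 4098 bases of the RefSeq gene, so its level is uncertain. NDUFA11, at 1.09 FPKM and as few as 15 reads, was the member just above the filter.

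NDUFC2 (chromosome 9, 12486488 to 12492507), an accessory subunit of the membrane arm, was the nuclear member furthest from its Control. It stood at 9.56, 10.9 and 10.8 FPKM in MT and at 15.3, 13.6 and 11.5 FPKM in Control. The groups did not overlap. Its log2 difference was -0.34 (SE 0.13, unadjusted p 0.04, adjusted p 1 in limma), and -0.44 without Control 3 (SE 0.09, adjusted p 0.036). NDUFA9, at the joint of the 2 arms, also did not overlap, at 33.4, 31.9 and 33.5 FPKM in MT and 34.9, 34.2 and 34.6 FPKM in Control, a difference of -0.07 (SE 0.09). These were 2 of the 27 tested nuclear members, and no nuclear member lay wholly higher in MT, beside 4.99% of all tested genes wholly lower and 6.24% wholly higher.

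The other nuclear members with the smallest p in each direction overlapped between the groups, and none passed in limma. Of those higher on average in MT, NDUFB9 of the distal membrane arm stood at 62.7, 49.9 and 61.3 FPKM in MT and at 50.8, 48.5 and 56.4 FPKM in Control. NDUFA10, an accessory subunit with a kinase-like fold, stood at 111, 100 and 115 FPKM in MT and at 85.3, 95.8 and 114 FPKM in Control. NDUFS5, of the proximal membrane arm, stood at 77.4, 65.7 and 73.7 FPKM in MT and at 60.6, 61.9 and 76.3 FPKM in Control. In NDUFA10 and NDUFS5 all MT libraries lay above Control 1 and Control 2, with Control 3 among the MT values. NDUFS4, an accessory subunit that helps hold the NADH-binding module in place, stood at 19.9, 19.1 and 18.5 FPKM in MT and at 19.5, 19.2 and 14.3 FPKM in Control. NDUFA4, once counted to complex I and since placed with cytochrome c oxidase, stood at 107, 105 and 107 FPKM in MT and at 112, 92.8 and 93.1 FPKM in Control. For NDUFS4 the MT libraries sat beside Control 1 and Control 2, and for NDUFA4 just below Control 1.

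Of those lower on average in MT, NDUFB8 of the distal membrane arm stood at 51, 46.8 and 52.1 FPKM in MT and at 47.4, 49.5 and 71.3 FPKM in Control. NDUFA7, an accessory subunit of the matrix arm, stood at 19.1, 14.2 and 15.6 FPKM in MT and at 14.8, 14.7 and 26.2 FPKM in Control. Both means rested on a high Control 3, and the differences were 0.04 and 0.13 without it. NDUFB6, also of the distal membrane arm, stood at 8.66, 9.38 and 7.94 FPKM in MT and at 11.2, 11 and 7.19 FPKM in Control, with Control 3 the lowest of all. The log2 differences of these 8 members lay between -0.14 and 0.15.

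By position in the complex the medians of the nuclear members were close to 0 in the modules listed here. The 7 mitochondrial members of the membrane arm are not in these counts, and their log2 differences ran from -0.25 to 0.54. Of the NADH-binding module 4 of 8 tested members were higher in MT (median 0.00), of the proximal membrane arm 3 of 5 (0.07) and of the distal membrane arm 7 of 9 (0.04). Over all tested genes 6128 of 10950 were higher in MT. None of these members passed.

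**Figure D4:**
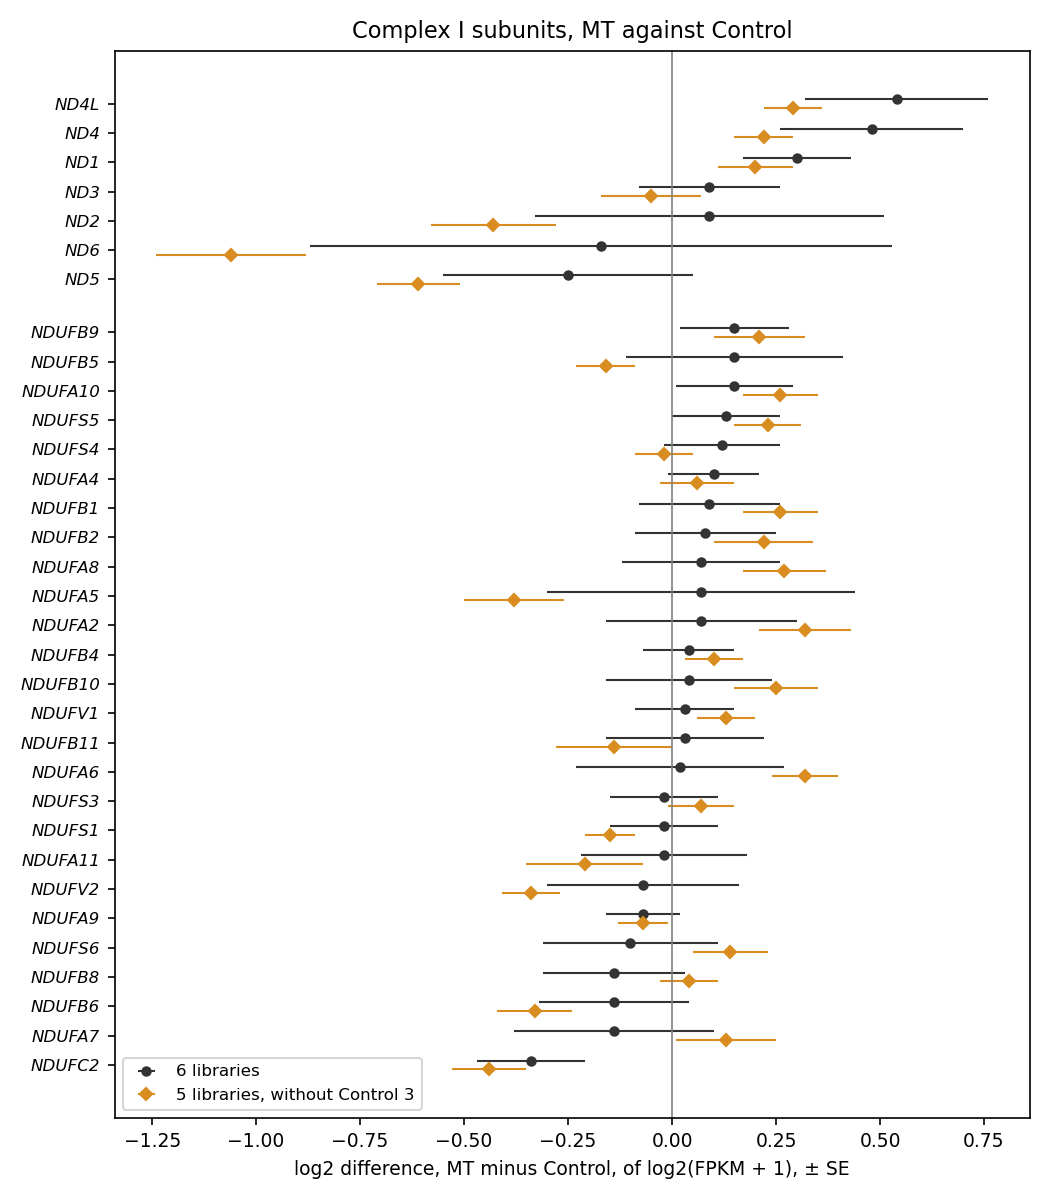
Log2 difference of MT minus Control for 33 of the 34 tested members, mitochondrial above and nuclear below, with standard errors, over 6 libraries (black circles) and over the 5 without Control 3 (orange diamonds). Circles of the nuclear members stay within -0.34 to 0.15, and ND6 moves to -1.06 without Control 3.

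Among the fits that left out 1 library, the one without Control 3 was the only one with a gene past the threshold. In it 4 members passed an adjusted p of 0.05 in limma, all lower in MT: ND5, ND6, NDUFC2 and NDUFV2. In all tested genes 4.28% then rose and 6.62% fell, 10.9% in either direction. Of the 34 members 4 were called in either direction, near that share of 10.9%. All 4 fell and 0 rose, beside the 6.62% of all genes that fell, and no test was made of this count. The median was then 0.10 over the nuclear members and -0.05 over the mitochondrial ones, beside -0.00 over all genes.

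Control 3 itself split the nuclear members. Against the mean of Control 1 and Control 2 it lay higher in 17 and lower in 10 of the 27, from -1.36 (NDUFA5) to 0.89 (NDUFA6) in log2. NDUFA5, a subunit of the ubiquinone module, stood at 8.05, 10.8 and 8.67 FPKM in MT and at 11.9, 12.3 and 4.13 FPKM in Control. NDUFA6, an accessory subunit of the matrix arm, stood at 27.4, 25.8 and 29.9 FPKM in MT and at 21.4, 22.5 and 41.5 FPKM in Control. In both, the MT libraries lay between Control 3 and the other Control libraries. The MT mean lay between Control 3 and the mean of Control 1 and Control 2 in 23 of the 27 (85.2%). It did so in 4 of the 7 mitochondrial members (57.1%) and in 68.8% of all tested genes, so this place is common across the libraries. Control 3 was the highest or lowest library in 21 of the 27 (77.8%), close to the share of all tested genes.

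Gene length ran along with this split. The 16 nuclear members with gene models under 2000 bases had a median of 0.32 in Control 3 against Control 1 and Control 2, and 13 of them were higher there. The 11 tested members of 2000 bases or more had a median of -0.38, and 7 were lower. In all tested genes the same medians were 0.17 and -0.07, with 1236 of 2037 shorter genes higher and 4843 of 8913 longer genes lower. Across the 27 members Spearman's rho of length with the Control 3 deviation was -0.36, and -0.20 across all tested genes, both as descriptions of 1 library against 2. Without Control 3 the MT difference was above 0 in 14 of the 16 shorter members (median 0.18) and below 0 in 8 of the 11 longer ones (median -0.15). In all tested genes those medians were 0.05 and -0.01, with 1128 of 2037 shorter genes above 0 and 4635 of 8913 longer genes below 0. Both sets of differences are taken against Control 1 and Control 2, so they are not independent.

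**Figure D5:**
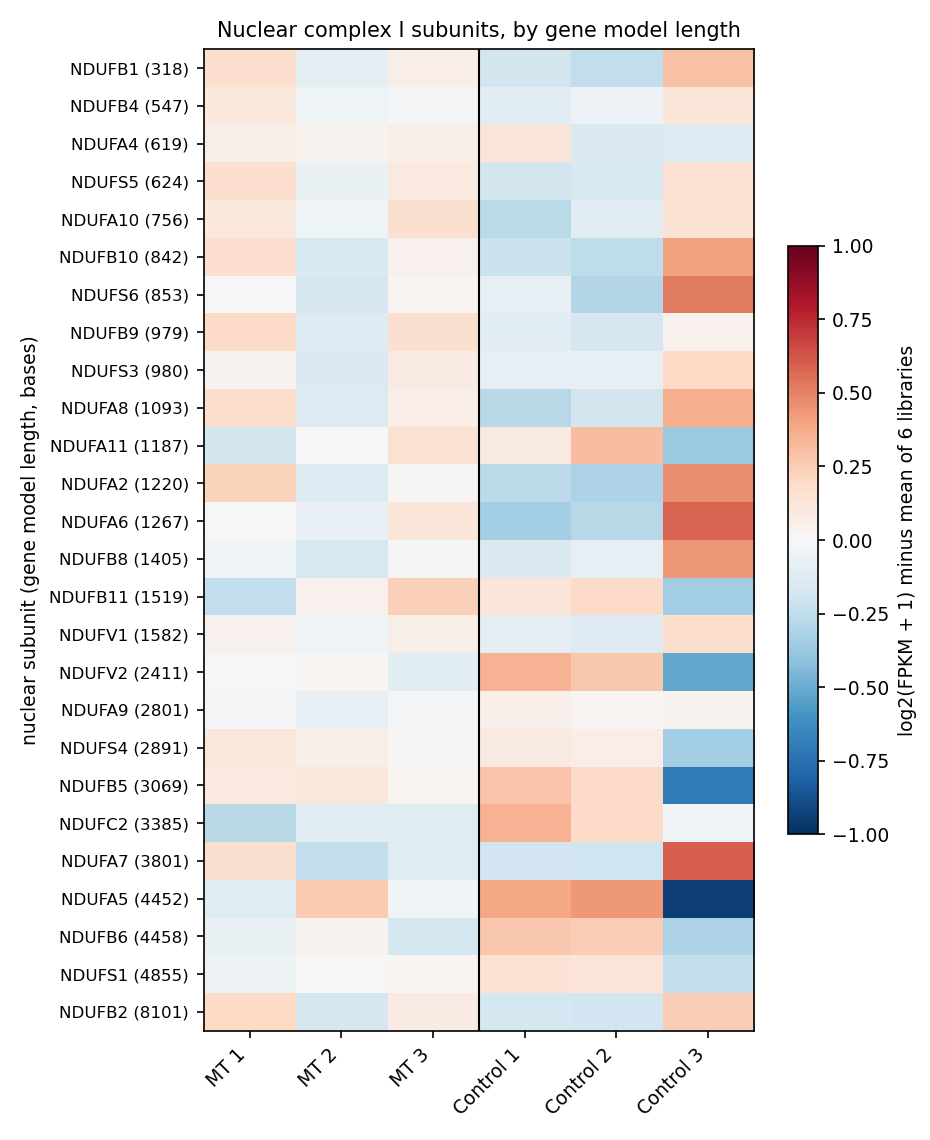
Log2(FPKM + 1) of 26 of the 27 tested nuclear members minus the mean of 6 libraries, rows in order of gene model length from short (top) to long, MT columns left of Control. Control 3 is red in most rows under 2000 bases and blue in most longer rows, deepest in NDUFA5.

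Assembly factors of complex I, which build the complex but do not stay in it, were set beside the subunits. Of 17 measured, 0 passed over 6 libraries, 12 were lower in MT and the median was -0.02, beside 4822 of 10950 tested genes lower and a median of 0.02. Without Control 3 11 of the 17 were lower and the median was -0.04, beside 5544 of 10950 tested genes lower and a median of -0.00. In that fit 3 of the 17 passed, all lower, beside 10.9% of all tested genes in either direction. No test was made of this count. NDUFAF6 stood at 6.25, 7.24 and 7.28 FPKM in MT and at 10.1, 10.2 and 8.26 FPKM in Control, without overlap. Its difference was -0.41 (SE 0.13, unadjusted p 0.015, adjusted p 0.83 in limma), and -0.50 without Control 3 (adjusted p 0.029). TMEM126A, which helps build the ND4 part of the membrane arm, averaged 17.7 ± 2.72 FPKM in MT and 21.6 ± 7.37 in Control and fell by 0.52 without Control 3. NDUFAF1, the other factor that fell there (0.35, adjusted p 0.04), was picked after its values were seen. NDUFAF4 averaged 2.09 ± 0.192 and 2.6 ± 0.614 FPKM, and ACAD9, an acyl-CoA dehydrogenase that also acts in assembly, 7.71 ± 0.419 and 8.38 ± 0.861 (SD, n = 3 each), and neither passed.

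The other mRNAs of the mitochondrial genome spread further than the complex I ones. Cytochrome b (CYTB), the mitochondrial subunit of complex III, stood at 2225, 2502 and 1781 FPKM in MT and at 978, 904 and 651 FPKM in Control. Its log2 difference was 1.37 (SE 0.20, adjusted p 0.24 in limma), and 1.19 without Control 3 (adjusted p 0.017). CYTB lies next to ND6, which was lower in MT than in Control 1 and Control 2. COX3, of cytochrome c oxidase, stood at 4199, 5263 and 3755 FPKM in MT and at 7271, 7216 and 4614 FPKM in Control, and fell by 0.73 without Control 3 (adjusted p 0.033). COX2 averaged 4397 ± 719 FPKM in MT and 3552 ± 1620 in Control, and ATP6 5010 ± 681 and 4118 ± 1892 (SD, n = 3 each), and neither passed in limma. ATP8, the remaining mRNA that fell without Control 3, was named after its values were seen, at 100, 326 and 97.3 FPKM in MT and 818, 719 and 36.5 FPKM in Control. Its 204 bases share 43 with ATP6. Without Control 3, 3 of these 6 mRNAs passed, beside 10.9% of all tested genes, and no test was made of this count.

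Of the genes for transcription and stability of mitochondrial RNA, 17 of 21 tested were lower in MT, none passed over 6 libraries, and the median was -0.05, beside 4822 of 10950 tested genes lower. Without Control 3 17 of the 21 were lower and the median was -0.22, beside 5544 of 10950 tested genes lower. In that fit 2 of the 21 passed, near the share of 10.9% of all tested genes. TWNK, the mitochondrial DNA helicase, averaged 5.27 ± 0.099 FPKM in MT and 5.94 ± 0.586 in Control, and FASTK, an RNA-binding protein that in mouse and human cells protects ND6 mRNA, 5.43 ± 0.621 and 6.38 ± 1.31. TFB1M, which methylates mitochondrial rRNA, averaged 5.74 ± 1.15 and 6.31 ± 0.591. PNPT1, a nuclease of mitochondrial RNA, stood at 9.13, 10.2 and 10.3 FPKM in MT and at 14.6, 15 and 7.88 FPKM in Control, and fell by 0.54 without Control 3 (adjusted p 0.024 in limma). TFAM, the packaging and transcription factor of mitochondrial DNA, also fell there (0.65, adjusted p 0.042) and was named after its values were seen. It stood at 9.7, 14.3 and 11.3 FPKM in MT and at 18.1, 19.6 and 5.88 FPKM in Control.

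Of the 15 regulators of nuclear respiratory genes, 12 were tested, 10 were lower in MT, none passed over 6 libraries and the median was -0.04, beside 4822 of 10950 tested genes lower. Without Control 3 7 of the 12 were lower and the median was -0.12, beside 5544 of 10950 tested genes lower. In that fit 3 of the 12 passed, all lower, beside 10.9% of all tested genes in either direction. No test was made of this count. The cAMP-responsive factor CREB1 averaged 2.74 ± 0.269 FPKM in MT and 3.72 ± 0.823 in Control and fell by 0.48 without Control 3 (adjusted p 0.035 in limma). ESRRA, a nuclear receptor that drives respiratory genes, averaged 3.06 ± 0.179 and 2.69 ± 0.724. The deacetylase SIRT1 averaged 2.7 ± 0.388 and 3.25 ± 1.08, and GABPB1, a subunit of the respiratory gene activator GABP, 1.09 ± 0.0792 and 1.26 ± 0.302 (SD, n = 3 each), and these 3 did not pass. GABPA, the DNA-binding partner of GABPB1, and PRKAA1, a catalytic subunit of AMP kinase, fell by 0.44 and 0.47 without Control 3 (adjusted p 0.043 and 0.044) and were named after their values were seen. NRF1, PPARGC1A and ESRRG averaged under 1 FPKM and were not tested.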

How the data were processed

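The authors deposited FPKM, 1 column per library without pooling. Per the submitters' processing notes the tools were HISAT2, featureCounts, Subread and bcl2fastq, with the build Sscrofa11.1. The sources used here do not give versions, annotation release, strand setting or handling of shared reads. FPKM is tied to each library's sum, so abundant mitochondrial mRNAs move other values. Read totals and gene lengths were recovered from value steps (tolerance 0.01, whole for 20731 genes), and the true numbers could be multiples of these.

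Symbols came from Ensembl IDs (13173 of 20731 genes), positions by symbol from RefSeq. Genes averaging at least 1 FPKM (10950) were tested on log2(FPKM + 1), which understates changes of low genes. The test was limma 3.58.1 in R 4.3.3 (eBayes with trend, two-sided, group only). The model was also run on simulated data with an equal spread for all genes and no library apart. That setting differs from these libraries, so the run says nothing about the effect of Control 3. Other work used Python 3.11.15, pandas 2.3.3 and matplotlib 3.10.9. Members, lists and alternatives were chosen with earlier results of these data known. Named genes were the mitochondrial and core nuclear subunits, the 5 nuclear members of smallest p per direction, up to 4 per companion list, and members whose values are described; others are marked. No sequence is shown, and 1 member, counted in every sum and count, is not reported here singly.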

Additional observations from a re-analysis of the deposited data

How the results depend on the processing

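Over 6 libraries, 0 complex I members and 0 of all genes passed with another pseudocount, no filter, a filter of 5 FPKM, quantile normalisation, scaling outside the mitochondrial mRNAs, median of ratios, no variance trend, removal of a length trend, limma voom on recovered reads or the replicate block (0 calls as well, 499 genes at an unadjusted p under 0.05). With each group's mean taken off, the deviations of same-numbered libraries correlated at -0.441, 0.632 and 0.338. MT 1 correlated alike with Control 1 (-0.441) and Control 2 (-0.435). With so few libraries and Control 3 apart, these values cannot show whether the numbers pair the libraries. Limma sample weights passed 6309 of all 10950 tested genes and 27 of the 34 tested members, and no test was made of this count. These weights reversed ND2 (-0.48), NDUFS3 (0.11), NDUFB8 (0.05), NDUFA7 (0.27), COX2 (-0.04) and ATP6 (-0.09). Quantile normalisation reversed NDUFS3 (0.02). With 1 library left out, genes passed numbered 0 to 1194 and members 0 to 4. Those fits gave ranges that crossed 0 for ND2 (-0.43 to 0.37), ND3 (-0.05 to 0.21), ND6 (-1.06 to 0.29), NDUFS1 (-0.15 to 0.05), NDUFS3 (-0.07 to 0.07), NDUFV1 (-0.02 to 0.13), NDUFV2 (-0.34 to 0.09), NDUFS4 (-0.02 to 0.20), NDUFB8 (-0.25 to 0.04), NDUFA7 (-0.27 to 0.13), COX2 (-0.04 to 0.69), ATP6 (-0.06 to 0.67) and TFB1M (-0.24 to 0.01), and for the medians of the nuclear (-0.01 to 0.10) and mitochondrial members (-0.05 to 0.37), of the other mitochondrial mRNAs (-0.12 to 0.51) and of the genes for mitochondrial transcription and mRNA stability (-0.22 to 0.01), and for the balance (-0.40 to 0.30). ND1, ND4, ND4L and NDUFC2 kept their direction in every fit run, as did, among others, ND5, NDUFB9, NDUFA10, NDUFS5, NDUFA4, NDUFB6 and NDUFA9. The balance was -0.02 under quantile normalisation and 0.05 to 0.14 in its other forms. The ratio of summed FPKM takes no pseudocount, while the form at 0.14 is a mean of log2(FPKM + 1). Another pseudocount was not run for the balance. The causes were not tested. No fit varied read depth, so what depth limits was not tested.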
